A study of Mus musculus with 4 samples.

Results

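The 41 autophagy and mitophagy genes described here were chosen as a list of symbols by pathway role, with no threshold on their values, and run from the initiation kinase complex to the receptors that carry cargo and mitochondria into autophagosomes. All 41 were among the 26322 genes listed for MC38 cells, a mouse line labelled as colorectal cancer, and all 41 were among the 12207 genes that passed the filter on low values. The cells were electroporated with Cas9 and either a non-targeting guide (sgNT, 2 libraries, labelled WT) or a guide against Cbfb (sgCbfb, 2 libraries, labelled CbfbKO), which encodes CBFβ, the partner subunit that stabilises RUNX transcription factors on DNA. Both groups were thus electroporated with Cas9, had no other treatment in the labels, and were collected at least a week later; the submitters set a further replicate of each group aside because of RNA quality. Nothing in the labels says that the 2 libraries of a group came from separate cultures, so p-values measure the spread between these libraries, which may be technical, and values are for a population of cells rather than a clone picked from it as far as the sources state.

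Macroautophagy encloses cytoplasm in a double membrane and delivers it to the lysosome. The ULK1 kinase complex starts the process, a class III PI3-kinase complex around Beclin 1 makes the lipid that marks the new membrane, and lipid-transfer proteins and scramblases let that membrane grow. Enzymes related to the ubiquitin cascade then attach small ATG8 proteins (the LC3 and GABARAP proteins) to the membrane, and receptors that bind both ATG8 and a tagged cargo bring in aggregates or, in mitophagy, damaged mitochondria. Much of this control acts on proteins, by phosphorylation, lipid attachment and turnover, which RNA levels do not show.

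Promoter sequences are given for 3 of the 5 genes with the smallest p-values below, because the RUNX partners of CBFβ bind DNA. Both windows among the 5 that hold the RUNX motif are shown, with that of Atg101, the gene with the smallest p, while the windows of Pink1 and Fundc1 hold no match and are not printed. Each sequence is the RefSeq window of 300 bases (GRCm38.p6, 250 before the start of the transcript and 50 from it), read 5′ to 3′ on the strand of the gene, and the capitals mark TGTGGT, the core that RUNX proteins recognise, or ACCACA where it lies on the other strand. The Sqstm1 window is chr11:50210771-50211070 on the minus strand, with its match beginning 170 bases before the start. The Calcoco1 window is chr15:102722129-102722428 on the minus strand, with its match 23 bases beyond the start. The Atg101 window is chr15:101284051-101284350 on the plus strand and holds no match.
Sqstm1: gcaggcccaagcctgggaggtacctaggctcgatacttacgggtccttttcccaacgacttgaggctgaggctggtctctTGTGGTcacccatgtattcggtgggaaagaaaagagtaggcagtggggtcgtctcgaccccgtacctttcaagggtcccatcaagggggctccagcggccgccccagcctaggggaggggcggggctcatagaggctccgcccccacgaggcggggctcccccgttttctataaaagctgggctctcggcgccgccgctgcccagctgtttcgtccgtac
Calcoco1: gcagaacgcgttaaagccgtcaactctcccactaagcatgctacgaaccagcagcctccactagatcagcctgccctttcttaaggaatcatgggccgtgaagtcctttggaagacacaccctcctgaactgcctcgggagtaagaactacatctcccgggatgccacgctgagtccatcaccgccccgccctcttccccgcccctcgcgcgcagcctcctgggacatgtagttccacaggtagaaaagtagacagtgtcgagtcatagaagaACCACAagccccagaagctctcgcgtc
Atg101: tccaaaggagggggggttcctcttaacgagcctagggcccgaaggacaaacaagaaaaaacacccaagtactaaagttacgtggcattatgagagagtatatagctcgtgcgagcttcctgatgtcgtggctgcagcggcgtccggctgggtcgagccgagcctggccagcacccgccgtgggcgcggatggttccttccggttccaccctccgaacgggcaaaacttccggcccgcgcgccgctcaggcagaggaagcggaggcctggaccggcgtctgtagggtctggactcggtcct

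RefSeq windows were matched for 34 of the 41 genes, 40 windows in all. TGTGGT, on either strand, was found in 9 of the 40 windows (22.5%), against 16.8% of all 32851 windows of the same length. These 9 were the windows of Atg13, Atg4b, Atg4c, Atg4d, Atg9a, Calcoco1, Nbr1, Sqstm1 and Uvrag. Apart from Calcoco1 and Sqstm1, these genes had an unadjusted p between 0.066 (Uvrag) and 0.803 (Atg4c, limma). The E-box CACGTG, the core bound by TFEB and TFE3, which switch on lysosomal and autophagy genes, was found in 4 windows (10%, of Atg14, Atg3, Atg5 and Atg7) against 7.15% of all windows. The loose NRF2 motif TGANNNNGC was found in 22 windows (55%) against 41.3%. The 40 windows had a median GC content of 59.7% and all windows 52.7%, and the part of base composition in these shares was not tested. The 3 motifs were searched apart from each other, and a match is a description of letters, not a bound site.

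The sgNT libraries held 3396192 and 3335116 reads, and the sgCbfb libraries 3907936 and 3189035, so that 1 read was worth between 0.256 and 0.314 CPM, the reads of a gene scaled to a common library total. Ribosomal precursor Rn45s took between 11.3% and 13.9% of the reads. Cbfb itself had 295 and 285 reads in sgNT against 125 and 125 in sgCbfb, a log2 fold change of -1.27 (SE 0.12, adjusted p = 1.76e-07, limma). Reads of a 3′ library fall at the end of the transcript and need not cover the cut, so this value is no measure of editing. Epithelial markers gave only 5 to 7 reads per library in sum over 8 genes (Krt18 and Vil1 were at 0), although the line is labelled colorectal cancer, and 5 mesenchymal markers gave 6909 to 8867. Nearly all of the latter was Vim (6737 to 8669 reads), followed by Pdgfra (91 to 169), while Pdgfrb, Col1a1 and Col1a2 had 16 reads or fewer in every library. In sgCbfb, Vim had a log2 fold change of -0.18 and Pdgfra one of 0.53 (adjusted p = 0.0538 and 0.0515, limma). With all libraries kept, other processing took the adjusted p as low as 7.36e-06 for Vim and 0.0097 for Pdgfra (limma), though neither passed in every alternative. The part of cell state in the results below was not tested. Leukocyte markers gave 0 or 1 read per library in sum. In these bulk samples, fewer cells of a type and less RNA per cell cannot be told apart.

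Levels are given in CPM of the reads recovered from the deposited log2 CPM, and changes as log2 fold changes of the deposited values, sgCbfb over sgNT, with limma's standard error (SE). The deposited values include a small prior count, which understates the change of low genes. In a 3′ library a transcript gives about one read whatever its length, so levels are compared between genes without a length term. The autophagy and mitophagy genes drew 6325 and 6570 reads in sgNT and 8039 and 6324 in sgCbfb, or 1862 and 1970 CPM against 2057 and 1983. Their median level was 4.28 log2 CPM, against 4.40 for all tested genes, and single genes had between 9 and 1708 reads in a library. The 3 most abundant genes of each library held between 42.5% and 44.2% of these reads. These were the receptors Sqstm1 and Tax1bp1 and the membrane protein Vmp1, in that order by mean level, and Atg4a was lowest. The order of Sqstm1 over Tax1bp1 and of Tax1bp1 over Vmp1 was the same in every library and larger than the spread between libraries.

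**Figure D1:**
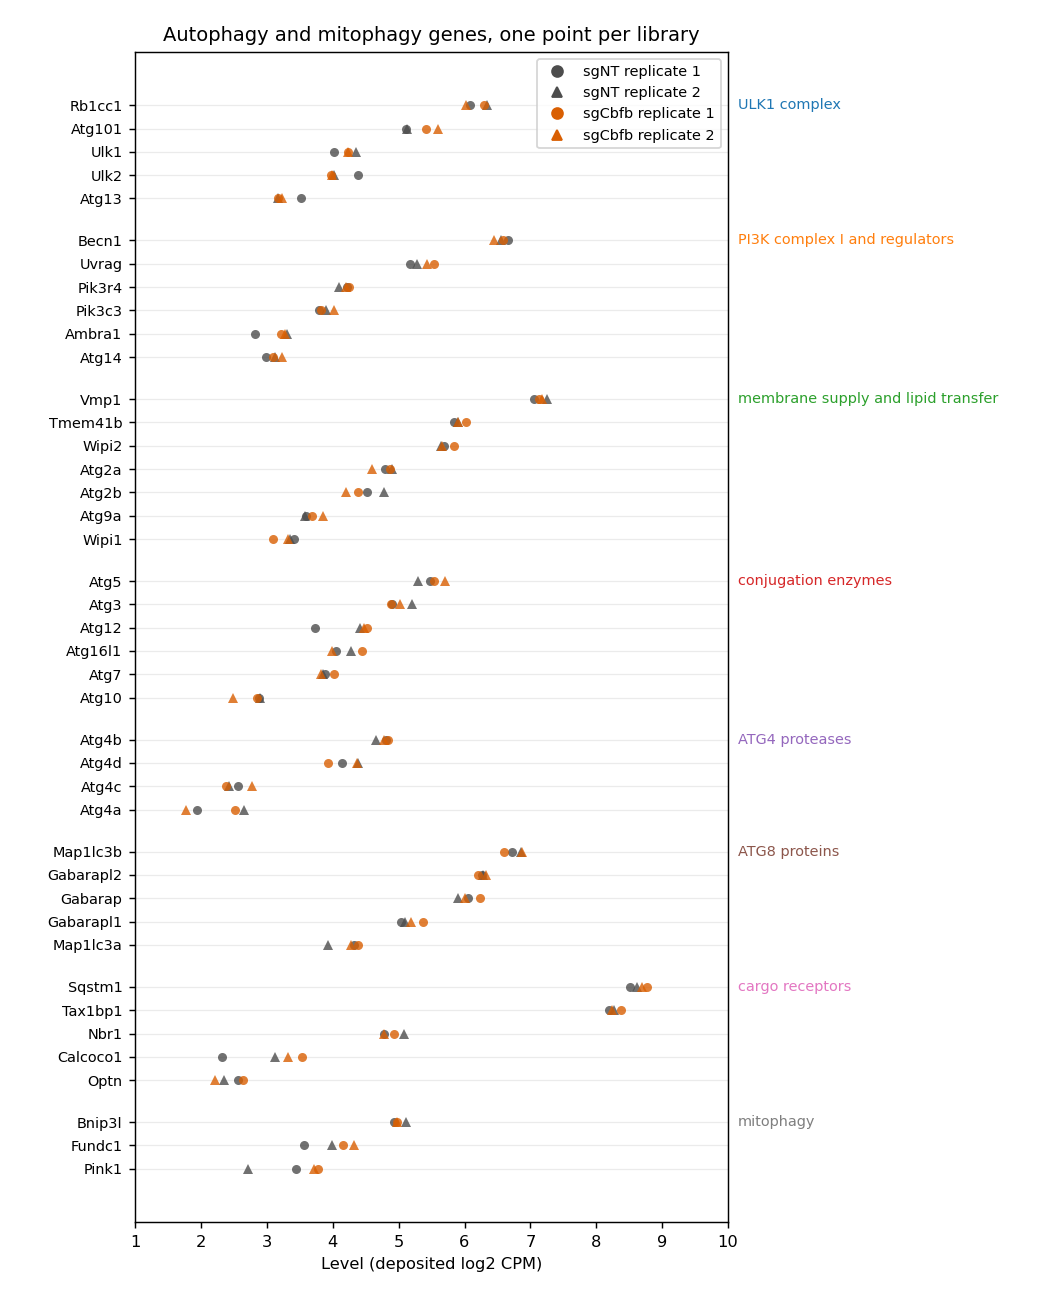
Level of each of the 41 genes (deposited log2 CPM, horizontal) in each library, grouped by role, with grey for sgNT and orange for sgCbfb, circles for replicate 1 and triangles for replicate 2. For most genes the points of the 2 groups interleave, and the gap between genes is far wider than that between groups.

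No autophagy or mitophagy gene passed the adjusted threshold of 0.05 in either direction (0 of 41 higher and 0 of 41 lower, limma with Benjamini-Hochberg adjustment over all 12207 genes). Of all tested genes, 1.57% were called higher (192 genes) and 1.25% lower (153 genes), a split that became 174 higher and 243 lower with voom and median scaling. The smallest adjusted p among the 41 was 0.143, for Atg101. At an unadjusted p under 0.05, 5 of the 41 were higher, against 9.67% of all tested genes, and 0 were lower, against 5.23%. The count of 5 was smaller without the filter, with quantile normalization and without the trend, as given at the end. Fits with voom on the recovered reads also called 0 of the 41. Values of sgCbfb lay wholly above those of sgNT for 10 of the 41, against 27.4% of all tested genes, and wholly below for 4, against 16.8%. The smallest two-sided p that exact permutation can reach for a gene here, with 2 libraries a group, is 0.333.

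The log2 fold changes of the 41 ran from -0.36 (Atg2b) to 0.71 (Calcoco1), with a median of 0.07. The median over all tested genes was 0.04. Both medians moved with scaling, to 0.023 and 0.0027 with quantile normalization and to 0.025 and 0.00026 with voom and median scaling. As deposited, 24 of the 41 (58.5%) were above 0 against 57% of all tested genes. Standard errors ran from 0.06 (Sqstm1) to 0.39 (Atg4a), with a median of 0.20. The 95% interval of the change stayed within 2-fold in both directions for 39 of the 41, the exceptions being Calcoco1 and Pink1, and within 1.5-fold for 24. At these standard errors, a change had to reach between 0.23 and 1.40 on the log2 scale to pass, with a median of 0.72. Smaller changes of the low genes would thus not have passed here. The parts of depth and of the spread between 2 libraries a group in this limit were not separated.

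**Figure D2:**
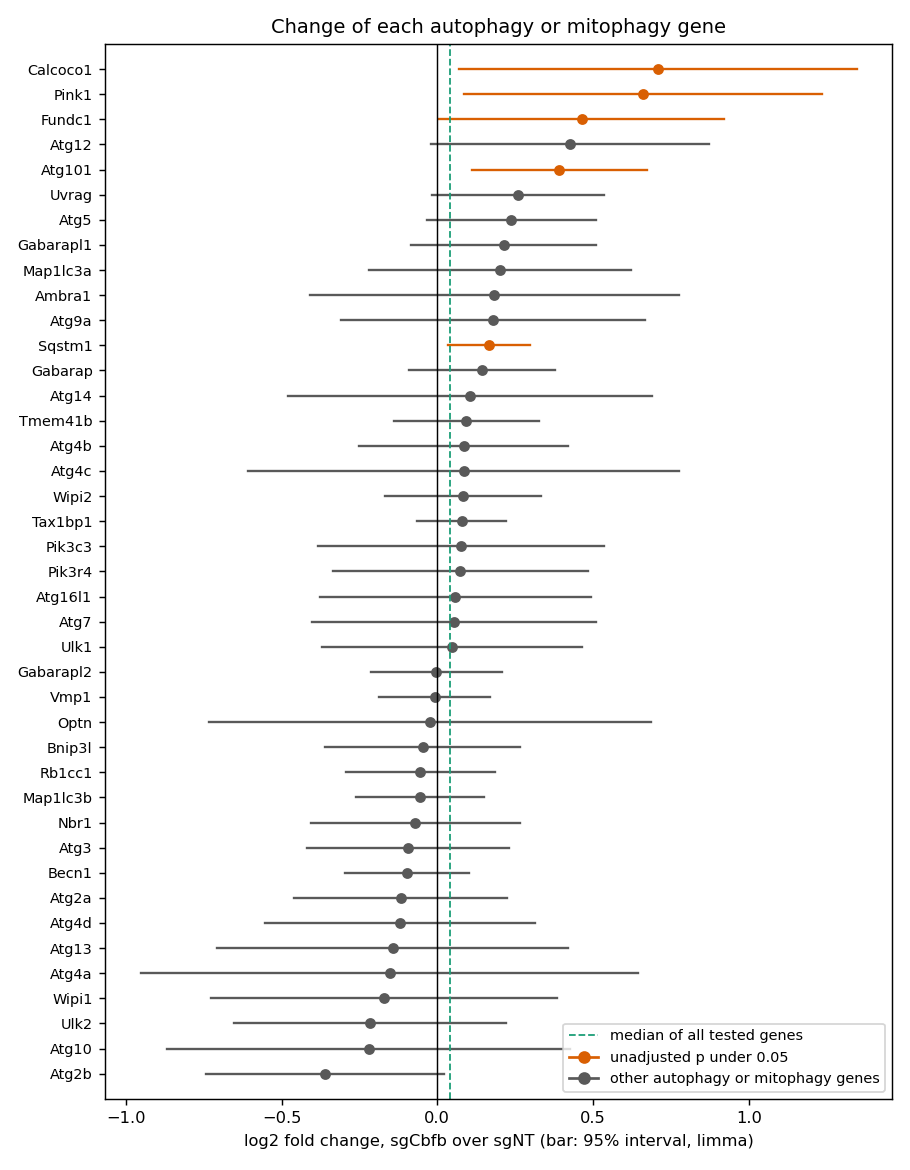
Log2 fold change of each gene (sgCbfb over sgNT, horizontal) with its 95% interval from limma, ordered by size, with orange for an unadjusted p under 0.05 and a dashed line at the median of all tested genes. The 5 orange genes lie to the right of 0, and the intervals of the other 36 include 0.

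**Figure D3:**
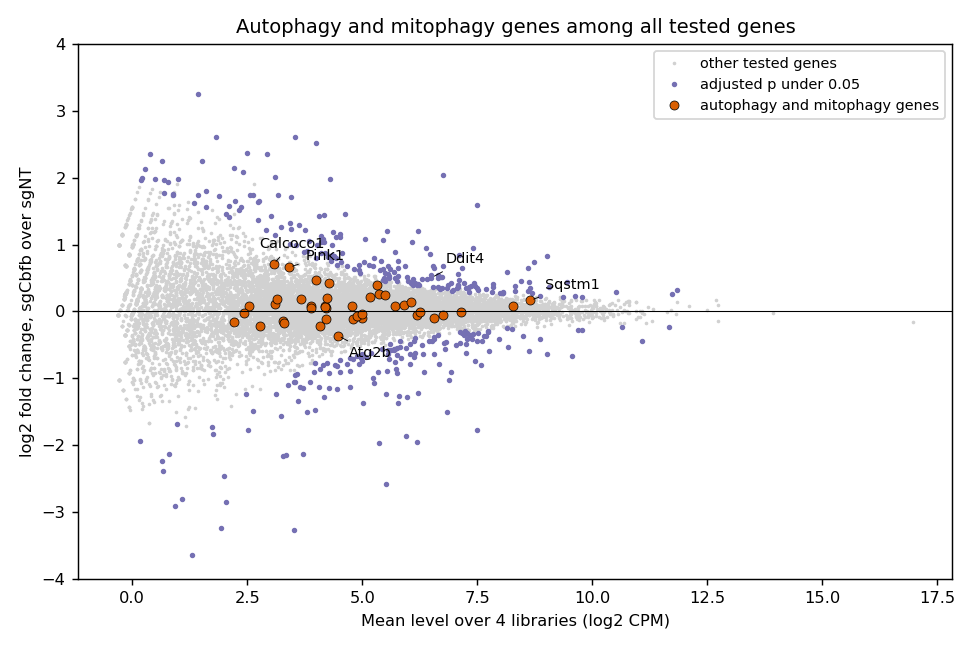
Log2 fold change (vertical) against mean level over the 4 libraries (log2 CPM, horizontal) for all 12207 tested genes, with the 41 genes in orange and genes past the adjusted threshold in purple. The 41 lie inside the grey cloud at every level, from -0.36 to 0.71, and Ddit4, an mTORC1 inhibitor, is among the purple genes.

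The ULK1 complex phosphorylates the downstream machinery and is the a point where nutrient signals act. Atg101 (chr15:101284272-101290945, plus strand, GRCm38), the subunit that stabilises ATG13, had 116 and 114 reads in sgNT and 165 and 153 in sgCbfb, or 34.2 and 34.2 CPM against 42.2 and 48.0 CPM. Both sgCbfb libraries lay above both sgNT libraries. The log2 fold change was 0.39 (SE 0.14, unadjusted p = 0.00847, adjusted p = 0.143, limma) and ran from 0.30 to 0.48 when each library was left out. Rb1cc1, which encodes the scaffold FIP200 and was the most abundant of the complex, had 67.4 and 80.7 CPM in sgNT and 78.0 and 64.6 in sgCbfb, so that the groups overlapped. Ulk1, the kinase itself, had 15.6 and 19.8 CPM against 18.2 and 18.2, and Ulk2, its paralogue, 20.3 and 15.6 against 15.1 and 15.4. The share of Ulk1 among the reads of both kinases was 43.4% and 55.9% in sgNT and 54.6% and 54.2% in sgCbfb. The libraries of sgNT differed from each other by more than those of sgCbfb, and the groups overlapped. Atg13 had between 28 and 37 reads in every library.

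Of the 6 PI3-kinase genes, 0 had an unadjusted p under 0.05, against 9.67% of all tested genes higher and 5.23% lower. Becn1, which encodes the Beclin 1 scaffold, was the most abundant, with 343 and 312 reads in sgNT and 371 and 277 in sgCbfb, a log2 fold change of -0.10 (SE 0.10), and overlaps Cntd1 on the other strand at its 3′ end. Pik3c3 and Pik3r4, the lipid kinase VPS34 and its regulatory subunit, had changes of 0.08 and 0.07 (SE 0.22 and 0.20). Uvrag, which takes the place of ATG14 in a complex acting later in the pathway, had 35.6 and 38.1 CPM in sgNT and 46.1 and 42.3 in sgCbfb. Its sgCbfb libraries lay above both sgNT libraries, with a change of 0.26 (SE 0.13, adjusted p = 0.38, limma). Atg14, the targeting subunit, and Ambra1, a regulator of Beclin 1, each had 34 reads or fewer in every library.

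Among the genes of membrane supply, Vmp1, a scramblase of the endoplasmic reticulum, was the most abundant, with 133 and 152 CPM in sgNT and 139 and 144 in sgCbfb. Its change was -0.01 (SE 0.09), and its 95% interval ran from 0.879-fold to 1.12-fold. The 3′ end of Vmp1 overlaps Mir21a on the same strand, and how reads of overlapping genes were assigned is not given in the sources used here. Atg2b, a lipid-transfer protein that bridges the endoplasmic reticulum and the growing membrane, had the lowest change of the 41, with 22.4 and 27.0 CPM in sgNT and 20.2 and 17.9 in sgCbfb. All sgCbfb values lay below the sgNT values, at a change of -0.36 (SE 0.18, unadjusted p = 0.0625, adjusted p = 0.371, limma). The change was -0.23 without sgNT replicate 2 and -0.49 without sgNT replicate 1, where Atg4a, at -0.51, was lower still. Its paralogue Atg2a had -0.12 (SE 0.17) with overlapping groups. Wipi2, which reads the PI3-kinase lipid and recruits ATG16L1, had 0.08 (SE 0.12), Tmem41b, a second scramblase, 0.09 (SE 0.11), and Wipi1 and Atg9a had 48 reads or fewer in every library.

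The conjugation enzymes were led by Atg5, part of the complex that fixes ATG8 to lipid, with 43.9 and 38.7 CPM in sgNT and 45.8 and 51.7 in sgCbfb (change 0.24, SE 0.13, adjusted p = 0.418, limma). Its change was 0.15 without sgNT replicate 2 or sgCbfb replicate 2. Atg12, its conjugation partner, had 12.7 and 20.7 CPM in sgNT and 22.3 and 21.6 in sgCbfb. Replicate 1 of sgNT was the low library of Atg12, and the change of 0.42 (SE 0.22, adjusted p = 0.368, limma) was 0.08 without it. Atg7 and Atg3, the activating and conjugating enzymes, had changes of 0.05 and -0.10 (SE 0.22 and 0.16). Atg16l1, the third part of the complex, had 0.06 (SE 0.21) and Atg10 -0.22 (SE 0.31), on 26 reads or fewer per library.

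The ATG4 proteases trim ATG8 proteins and release them from membrane. Their reads summed to 53.0 and 55.5 CPM in sgNT and 52.5 and 56.1 in sgCbfb. Atg4b supplied the largest share, 51.7% and 44.3% against 53.7% and 48.0%, and had a change of 0.08 (SE 0.16). Atg4d (-0.12, SE 0.21), Atg4c (0.08, SE 0.33) and Atg4a (-0.15, SE 0.39) followed in level, with Atg4a at 9 to 20 reads and the widest interval of the 41.

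The 5 ATG8 genes together gave 299 and 300 CPM in sgNT and 306 and 315 in sgCbfb. Both sgCbfb sums lay above both sgNT sums, by an amount of about the size of the gap between the sgCbfb libraries, and the sum was not tested. Map1lc3b, which encodes LC3B, was the most abundant, with 105 and 116 CPM in sgNT and 96.5 and 117 in sgCbfb (change -0.06, SE 0.10). Gabarapl2 had 76.3 and 76.8 CPM against 73.4 and 79.3 (-0.0034, SE 0.10), Gabarap 66.0 and 59.4 against 74.7 and 64.0 (0.14, SE 0.11), and Map1lc3a 19.4 and 14.7 against 20.2 and 18.8 (0.20, SE 0.20). With a library left out, the change of Map1lc3a ran from 0.0050 (without sgNT replicate 2) to 0.40 (without sgNT replicate 1), and that of Gabarap from 0.031 (without sgCbfb replicate 1) to 0.25 (without sgCbfb replicate 2). Gabarapl1 was the ATG8 gene whose sgCbfb libraries both lay above sgNT, with 32.1 and 33.6 CPM against 40.7 and 35.8 (0.21, SE 0.14, adjusted p = 0.536, limma; 0.12 without sgCbfb replicate 1). The LC3 genes made up 41.7% (95% Clopper-Pearson interval 38.7% to 44.8%) and 43.5% (40.4% to 46.6%) of ATG8 reads in sgNT, and 38.2% (35.4% to 41.0%) and 43.1% (40.0% to 46.3%) in sgCbfb. The lower share was that of one sgCbfb library, the other being close to the sgNT libraries. These intervals cover counting error only, and the 3′ end of Map1lc3b overlaps Gm20388 and Zcchc14.

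**Figure D4:**
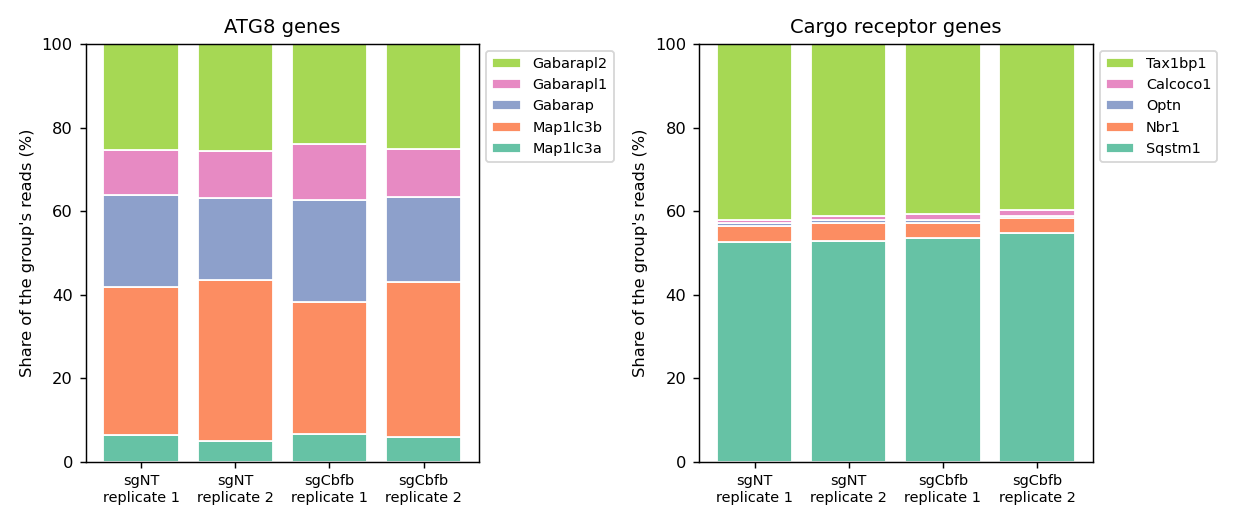
Share of reads (%, vertical) of each gene among the 5 ATG8 genes and the 5 cargo receptor genes, in each of the 4 libraries. Map1lc3b held 31.6% to 38.6% of ATG8 reads, and Sqstm1 and Tax1bp1 together held nearly all receptor reads in every library.

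Cargo receptors carried the most reads. Sqstm1 (chr11:50199366-50210827, minus strand, GRCm38), which encodes p62, a receptor of ubiquitin-tagged cargo, had 1241 and 1314 reads in sgNT and 1708 and 1323 in sgCbfb, or 365 and 394 CPM against 437 and 415 CPM. Its groups did not overlap, and the change was 0.17 (SE 0.06, unadjusted p = 0.0164, adjusted p = 0.196, limma), a fold of 1.12. The change ran from 0.11 to 0.22 when each library was left out. The 3′ end of Sqstm1 overlaps Mrnip on the other strand, and whether counting used strand is not given in the sources used here. Tax1bp1, a receptor recruited by ubiquitin and LC3, had 293 and 307 CPM in sgNT and 333 and 302 in sgCbfb (0.08, SE 0.07), a change that was 0.0076 without sgCbfb replicate 1 and 0.15 without sgCbfb replicate 2.

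Calcoco1 (chr15:102706777-102722178, minus strand, GRCm38), a receptor for the endoplasmic reticulum, had 15 and 27 reads in sgNT and 43 and 30 in sgCbfb, or 4.42 and 8.10 CPM against 11 and 9.41 CPM. Its change of 0.71 (SE 0.31, unadjusted p = 0.0311, adjusted p = 0.268, limma) was the highest of the 41 and had a wide interval, from 1.05-fold to 2.54-fold. Leaving out sgNT replicate 1, the low library, gave 0.31, below 1.02 for Pink1, and leaving out sgNT replicate 2 gave 1.11. Without sgCbfb replicate 1 the change of Calcoco1 was 0.60 and that of Pink1 0.63. Nbr1, a relative of p62, had -0.07 (SE 0.16) and Optn, a receptor in mitophagy, -0.02 (SE 0.34) on 13 to 22 reads. Sqstm1 supplied 52.6% and 52.7% of receptor reads in sgNT and 53.5% and 54.8% in sgCbfb, and Tax1bp1 42.2% and 41.1% against 40.8% and 39.9%.

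Of the 3 mitophagy genes, Pink1 (chr4:138313409-138326307, minus strand, GRCm38), the kinase that gathers on damaged mitochondria, had 35 and 20 reads in sgNT and 51 and 40 in sgCbfb, or 10.3 and 6.0 CPM against 13.1 and 12.5 CPM. Its sgNT libraries lay further apart than its sgCbfb libraries, and the change was 0.66 (SE 0.28, unadjusted p = 0.0260, adjusted p = 0.247, limma). It became 1.02 without sgNT replicate 1 and 0.30 without sgNT replicate 2. Fundc1 (chrX:17556564-17572325, minus strand, GRCm38), a receptor of the outer mitochondrial membrane that acts in hypoxia, had 38 and 51 reads against 67 and 62, or 11.2 and 15.3 CPM against 17.1 and 19.4 CPM. Its change was 0.46 (SE 0.22, unadjusted p = 0.0475, adjusted p = 0.327, limma), 0.25 without sgNT replicate 1 and 0.68 without sgNT replicate 2. Bnip3l, the receptor NIX and the most abundant of the 3, had 29.7 and 33.9 CPM against 30.7 and 30.7 (-0.05, SE 0.15). Both sgCbfb libraries lay above both sgNT libraries for Fundc1 and Pink1, as for 27.4% of all tested genes, and the groups overlapped for Bnip3l.

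**Figure D5:**
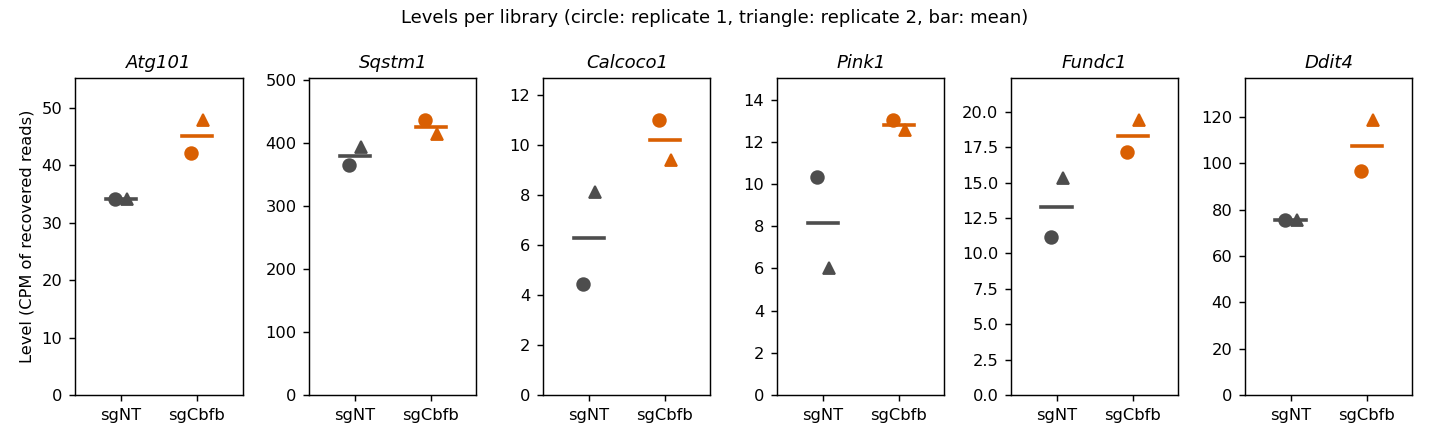
Level (CPM of recovered reads, vertical, each panel from 0) of the 5 genes with an unadjusted p under 0.05 and of Ddit4 in each library, with circles for replicate 1, triangles for replicate 2 and a bar at the group mean. In every panel both sgCbfb points lie above both sgNT points, as for 27.4% of all tested genes. The panels were picked by their p in these same data, so this separation is no further support. The sgNT points of Calcoco1, Pink1 and Fundc1 are spread widely.

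Around these genes, 68 further genes of the pathway in 6 lists were tested; Tfec and Trp53inp1 did not pass the filter. Of these 68, 1 was higher and 0 lower past the adjusted threshold, against 1.57% and 1.25% of all tested genes. At an unadjusted p under 0.05, 5 of the 68 were higher, against 9.67% of all tested genes, and 4 were lower, against 5.23%. Their median change was 0.05, against 0.04 over all tested genes. Libraries did not overlap for 18 higher (27.4% of all tested genes) and 14 lower (16.8% of all tested genes).

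The 1 gene called was Ddit4 (chr10:59949669-59951834, minus strand, GRCm38), which encodes REDD1, an inhibitor of mTORC1, the kinase complex that holds autophagy off when nutrients are plentiful. It rose from 256 and 252 reads in sgNT to 377 and 379 in sgCbfb, or from 75.4 and 75.6 CPM to 96.5 and 119 CPM, a log2 fold change of 0.50 (SE 0.10, adjusted p = 0.00536, limma). The call was lost whenever a library was left out, which leaves 1 library in a group, and the change then ran from 0.35 to 0.65. Dropping the filter on low values, quantile scaling and dropping the trend also ended the call (adjusted p = 0.712, 0.209 and 0.362, limma). It held in the other 7 alternatives that kept all libraries. Without the trend, 0 of all 12207 tested genes were called, so the loss there is not particular to Ddit4. Of the 18 mTORC1 and AMPK control genes, 6 had a change above 0 (33.3%, against 57% of all tested genes), with a list median of -0.10 against 0.04 over all tested genes. This list mixes genes that act for and against mTORC1, so these values give no direction of its activity. Rragc, a GTPase that brings mTORC1 to the lysosome, had 261 and 228 reads in sgNT and 222 and 167 in sgCbfb (-0.41, SE 0.11, adjusted p = 0.0509, limma). It was called lower in 6 of the 14 alternatives, the replicate block and both voom fits among them, with adjusted p from 0.0181 to 0.618 over the 10 that kept all libraries. Flcn, which acts on the same GTPases, had -0.38 (SE 0.17, adjusted p = 0.308, limma). Lamtor1, part of the lysosomal anchor of mTORC1, was the most abundant of the list, with a change of 0.05 (SE 0.08).

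None of the 3 tested MiT/TFE factors passed the adjusted threshold. Tfeb had 15 and 15 reads in sgNT and 35 and 21 in sgCbfb (0.71, SE 0.32, adjusted p = 0.288, limma). Tfe3, the most abundant, had 0.13 (SE 0.19) and Mitf -0.0046 (SE 0.26). Among 15 genes of fusion with lysosomes, Ykt6, a SNARE of the autophagosome, had 68.9 and 70.8 CPM in sgNT and 90.8 and 81.8 in sgCbfb (0.30, SE 0.10, adjusted p = 0.131, limma). Stx17, another such SNARE, had 23.6 and 20.7 CPM against 29.9 and 32.0 (0.48, SE 0.17, adjusted p = 0.142, limma). Arl8b, a lysosomal GTPase, had -0.25 (SE 0.11, adjusted p = 0.25, limma).

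Of the 14 further mitophagy genes tested, Bnip3, a receptor related to Bnip3l, had 53.9 and 47.4 CPM in sgNT and 61.4 and 64.9 in sgCbfb (0.32, SE 0.12, adjusted p = 0.169, limma). Vdac1, a channel of the outer mitochondrial membrane, was the most abundant of that list (0.07, SE 0.07). Among the receptors of the endoplasmic reticulum and ferritin, Rtn3 was the most abundant (0.06, SE 0.06), and Retreg1 had -0.22 (SE 0.10, adjusted p = 0.313, limma). Sh3glb1, which binds Beclin 1 through UVRAG, was the most abundant of the 9 further early factors tested (0.07, SE 0.07).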

How the data were processed

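Libraries were 3′ mRNA sequencing of total RNA from MC38 cells, 2 sgNT and 2 sgCbfb, grouped by their labels. Per the submitters' processing notes, the authors used cutadapt 1.9, HISAT2 2.1.0 and featureCounts 2.0.1 with mm10. The methods of the paper name an earlier version of featureCounts. The authors deposited log2 CPM values (log2 scale) with a prior count that the values show to be 2 scaled to library size; the annotation and the use of strand in counting are not given in the sources used here. Whole reads were recovered from them, at least 99.99% of the non-floor values lying no more than 0.1 from a whole number. Depth was 3189035 to 3907936 reads per library.

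The test was limma 3.58.1 (R 4.3.3; lmFit, eBayes with trend, two-sided) on the deposited values of genes reaching a log2 CPM of 0 in 2 or more libraries. P-values were adjusted by Benjamini-Hochberg over all of them and called under 0.05. Libraries of a group differed beyond counting noise (chi-square divided by its degrees of freedom was 1.57 in sgNT, 2.12 in sgCbfb) and were kept apart. The genes described and the pathway and marker lists were chosen with earlier results of these data known. Named genes were those past the adjusted threshold or an unadjusted p under 0.05, the most abundant of each role and list, and those nearest the threshold; the others are given by range or briefly. Positions are from GENCODE M21 (GRCm38) and promoters from RefSeq. Marchf5 was not analysed here. Alternatives covered the filter, scaling, prior count, trend, block, voom on recovered reads and leaving out each library.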

Additional observations from a re-analysis of the deposited data

How the results depend on the processing

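There were 14 alternatives, 10 of processing and 4 leaving out a library. Under the 10, 0 of the 41 genes were called in either direction, with a smallest adjusted p of 0.0946 (limma). Without the trend, 0 of all 12207 genes were called, so that fit could not have called any of the 41. The 4 that left out a library had 1 library in a group and are read for the size of the change only. No gene changed direction in the 10 processing alternatives and 22 kept it in all 14. In the others, the log2 fold change ran, over the libraries left out, as follows: Ulk1 -0.119 to 0.213, Rb1cc1 -0.190 to 0.0811, Atg13 -0.320 to 0.0342, Pik3c3 -0.0251 to 0.176, Ambra1 -0.0597 to 0.425, Atg2a -0.257 to 0.0222, Wipi2 -0.00955 to 0.177, Vmp1 -0.107 to 0.0904, Atg3 -0.250 to 0.0600, Atg7 -0.0483 to 0.155, Atg16l1 -0.168 to 0.285, Atg4a -0.525 to 0.219, Atg4c -0.117 to 0.285, Atg4d -0.344 to 0.102, Map1lc3b -0.194 to 0.0822, Gabarapl2 -0.0586 to 0.0519, Nbr1 -0.224 to 0.0830, Optn -0.231 to 0.185, Bnip3l -0.139 to 0.0459. For genes that kept their direction and whose range is not given above, it ran as follows: Ulk2 -0.402 to -0.0326, Becn1 -0.161 to -0.0338, Pik3r4 0.0144 to 0.134, Atg14 0.0364 to 0.173, Uvrag 0.198 to 0.318, Atg2b -0.493 to -0.229, Atg9a 0.0979 to 0.259, Wipi1 -0.286 to -0.0558, Tmem41b 0.0325 to 0.153, Atg5 0.148 to 0.327, Atg10 -0.406 to -0.0356, Atg12 0.0829 to 0.767, Atg4b 0.00863 to 0.161, Gabarapl1 0.121 to 0.305, Tax1bp1 0.00760 to 0.151. Without the filter, 2 of the 41 had an unadjusted p under 0.05 (limma), against 1729 of all 26322 genes. With quantile normalization this held for 2 of the 41, against 1633 of all 12207 genes. Without the trend it held for 1 of the 41, against 1461 of all 12207 genes.

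Pathway genes called higher were 0 without the filter, with quantile normalization, without the trend and without any 1 library (0 to 0). Pathway genes called lower were 1 (Rragc) at 5 CPM, with median centring, with ribosomal RNA left out, with the replicate block and with both voom fits. All genes called higher were 2 without the filter, 300 at 5 CPM, 39 with quantile normalization, 0 without the trend, 320 with the replicate block, and 0 to 115 without 1 library. All genes called lower were 53, 209, 44, 0 and 215 in the same order, 243 with voom and median scaling, and 0 to 86 without 1 library. Without the trend, 1461 genes had an unadjusted p under 0.05. The call of Cbfb was lost without the filter, without the trend and without either sgCbfb library (adjusted p = 0.290, 0.115, 0.267 and 0.193, limma), while its log2 fold change stayed between -1.41 and -1.12 in all 14. The cause of these shifts was not tested. Same-numbered libraries did not deviate together over all tested genes (r = -0.00417), and whether they shared a preparation was not tested. The replicate block called 0 of the 41. Depth limits what low genes can show, since 1 read was 0.256 to 0.314 CPM.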
